A study of Rattus norvegicus with 12 samples.

Results

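The receptors for glucagon-like peptide 1 (Glp1r), glucose-dependent insulinotropic polypeptide (Gipr), glucagon (Gcgr) and the neuropeptides VIP and PACAP (Vipr1, Vipr2 and Adcyap1r1) were followed in rat pancreatic islets after intrauterine growth restriction (IUGR). These 6 genes were taken by symbol from the 25888 gene symbols of the deposited table, and a symbol with several transcripts was represented by the transcript with the highest mean count. The groups were islets of IUGR rats at 10 weeks of age, of control rats at 10 weeks, of IUGR rats at 2 weeks and of control rats at 2 weeks, with 3 libraries each and 12 libraries in all. All animals were Sprague Dawley rats fed standard chow. For the IUGR groups both uterine arteries of the dam were ligated on embryonic day 18, and litters of control dams were reduced to 8 pups. The labels say neither whether control dams had sham surgery nor which sex was used, nor whether animals or litters were combined in a library. They also do not tie a library to an animal, so p-values measure the spread between these libraries, which may in part be technical.

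The 6 receptors belong to class B of the G protein-coupled receptors, which bind peptide hormones with a large extracellular domain. In beta cells they act mainly through the stimulatory G protein, adenylyl cyclase and cyclic AMP, which amplifies insulin secretion at raised glucose. Glp1r and Gipr receive the gut incretin hormones, Gcgr receives glucagon from neighbouring alpha cells, and the receptors Vipr1 (VPAC1), Vipr2 (VPAC2) and Adcyap1r1 (PAC1) receive peptides released by islet nerves. The comparisons set IUGR against control islets at each age, and 10 weeks against 2 weeks within each group.

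The libraries held 30396759 to 64201627 counts. Transcripts of 30 acinar markers, which are made by the exocrine pancreas around the islets, took 0.616 to 2.29% of the counts in IUGR libraries at 10 weeks, 13.8 to 46.5% in control libraries at 10 weeks, 4.32 to 9.23% in IUGR libraries at 2 weeks and 21.4 to 41.6% in control libraries at 2 weeks. The 13 beta cell markers found took 20.8 to 22.2% of the counts in IUGR libraries at 10 weeks, 4.16 to 10.7% in control libraries at 10 weeks, 4.78 to 5.24% in IUGR libraries at 2 weeks and 1.71 to 4.46% in control libraries at 2 weeks. Islet cells were thus present in every library, and at both ages the IUGR and control groups did not overlap in the share of acinar transcripts. Levels below are CPM, counts relative to the library total after TMM scaling, and they are compared between libraries and not between genes. In such bulk samples, fewer cells of a type and less RNA per cell cannot be told apart.

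The stretches upstream of 4 of these genes are shown because Glp1r, Gcgr and Vipr2 had nearly the same profile over the 12 libraries and Vipr1 ran against them. Each is the 250 bases before the RefSeq start of the gene on the GRCr8 assembly, plus strand, 5′ to 3′, at chr20:8973143-8973392 for Glp1r, chr10:106306553-106306802 for Gcgr (the first of its annotated starts), chr6:143144273-143144522 for Vipr2 and chr8:130187511-130187760 for Vipr1. Capitals mark the motifs found on either strand, namely the GC box GGGCGG, the CCAAT box and the cyclic AMP response element core TGACG.
Glp1r: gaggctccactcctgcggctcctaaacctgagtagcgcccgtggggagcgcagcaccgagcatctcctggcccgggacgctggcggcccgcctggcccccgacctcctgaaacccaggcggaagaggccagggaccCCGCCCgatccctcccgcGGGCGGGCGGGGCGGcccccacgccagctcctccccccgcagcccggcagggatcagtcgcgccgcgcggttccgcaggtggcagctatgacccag
Gcgr: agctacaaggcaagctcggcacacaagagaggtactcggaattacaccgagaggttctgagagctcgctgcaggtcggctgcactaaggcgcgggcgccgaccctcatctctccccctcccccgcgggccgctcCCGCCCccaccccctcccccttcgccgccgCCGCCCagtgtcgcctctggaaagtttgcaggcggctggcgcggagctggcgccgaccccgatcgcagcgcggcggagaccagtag
Vipr2: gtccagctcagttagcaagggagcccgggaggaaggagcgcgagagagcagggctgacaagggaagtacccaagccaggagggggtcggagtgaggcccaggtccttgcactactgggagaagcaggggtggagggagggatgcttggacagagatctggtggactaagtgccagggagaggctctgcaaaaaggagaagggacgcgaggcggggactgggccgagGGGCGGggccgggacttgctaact
Vipr1: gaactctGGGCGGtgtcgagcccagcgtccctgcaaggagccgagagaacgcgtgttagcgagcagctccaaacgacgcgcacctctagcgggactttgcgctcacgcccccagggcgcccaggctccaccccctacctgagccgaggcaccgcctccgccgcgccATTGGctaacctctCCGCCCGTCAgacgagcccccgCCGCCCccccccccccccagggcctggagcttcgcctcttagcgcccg
The Glp1r window held 4 GC boxes, the Gcgr window 2, the Vipr2 window 1 and the Vipr1 window 3. The GC boxes of Glp1r overlapped in part. The Vipr1 window also held 1 CCAAT box and 1 TGACG core, both on the minus strand, and this core shared 1 base with a GC box. A GC box stood in 30.5% of 33469 rat promoter windows of this length, a CCAAT box in 34.0%, TGACG in 18.2%, the TATA box TATAAA in 12.9% and the E-box CAGATG in 14.0%. Neither TATAAA nor CAGATG was among the letters of these 4 windows. G and C made up 75.6% of the Glp1r window, 70.0% of the Gcgr window, 64% of the Vipr2 window and 72% of the Vipr1 window, against a median of 51.2% over all windows. Entries were found for 5 of the 6 receptors, with Gipr as the exception, and these matches describe letters and say nothing of factors bound there.

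With age, the levels of Glp1r, Gcgr and Vipr2 rose together in both IUGR and control islets, whereas Gipr rose in IUGR islets and Vipr1 fell in both. Glp1r, the target of the incretin drugs used in diabetes, had 111, 111 and 117 CPM in IUGR islets at 10 weeks and 31.3, 27.9 and 28.3 CPM at 2 weeks. In control islets Glp1r had 93.9, 66.8 and 73.3 CPM at 10 weeks and 20.8, 29.8 and 35.9 CPM at 2 weeks. Every library at 10 weeks lay above every library at 2 weeks. The rise was 3.87-fold in IUGR islets (log2 fold change 1.95 ± 0.18 SE, edgeR adjusted p = 1.19e-05) and 2.70-fold in control islets (1.43 ± 0.18, adjusted p = 0.000358).

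Gcgr, through which glucagon from alpha cells amplifies insulin secretion, had 44.6, 32.9 and 36.2 CPM in IUGR islets at 10 weeks and 6.35, 6.89 and 6.31 CPM at 2 weeks. In control islets Gcgr had 27.3, 17.3 and 18.4 CPM at 10 weeks and 3.69, 7.41 and 7.80 CPM at 2 weeks. The ages did not overlap in either group. The level of Gcgr rose 5.81-fold with age in IUGR islets (2.54 ± 0.26, edgeR adjusted p = 2.25e-05) and 3.31-fold in control islets (1.73 ± 0.26, adjusted p = 9e-04).

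Vipr2, the VPAC2 receptor that binds VIP and PACAP alike, had 26.0, 25.8 and 30.1 CPM in IUGR islets at 10 weeks and 5.38, 4.79 and 5.34 CPM at 2 weeks. In control islets Vipr2 had 19.3, 16.8 and 14.2 CPM at 10 weeks and 3.98, 4.14 and 5.65 CPM at 2 weeks. Here too the ages stood apart in both groups. The level of Vipr2 rose 5.27-fold in IUGR islets (2.40 ± 0.15, edgeR adjusted p = 2.13e-06) and 3.64-fold in control islets (1.86 ± 0.15, adjusted p = 7.73e-05).

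**Figure D1:**
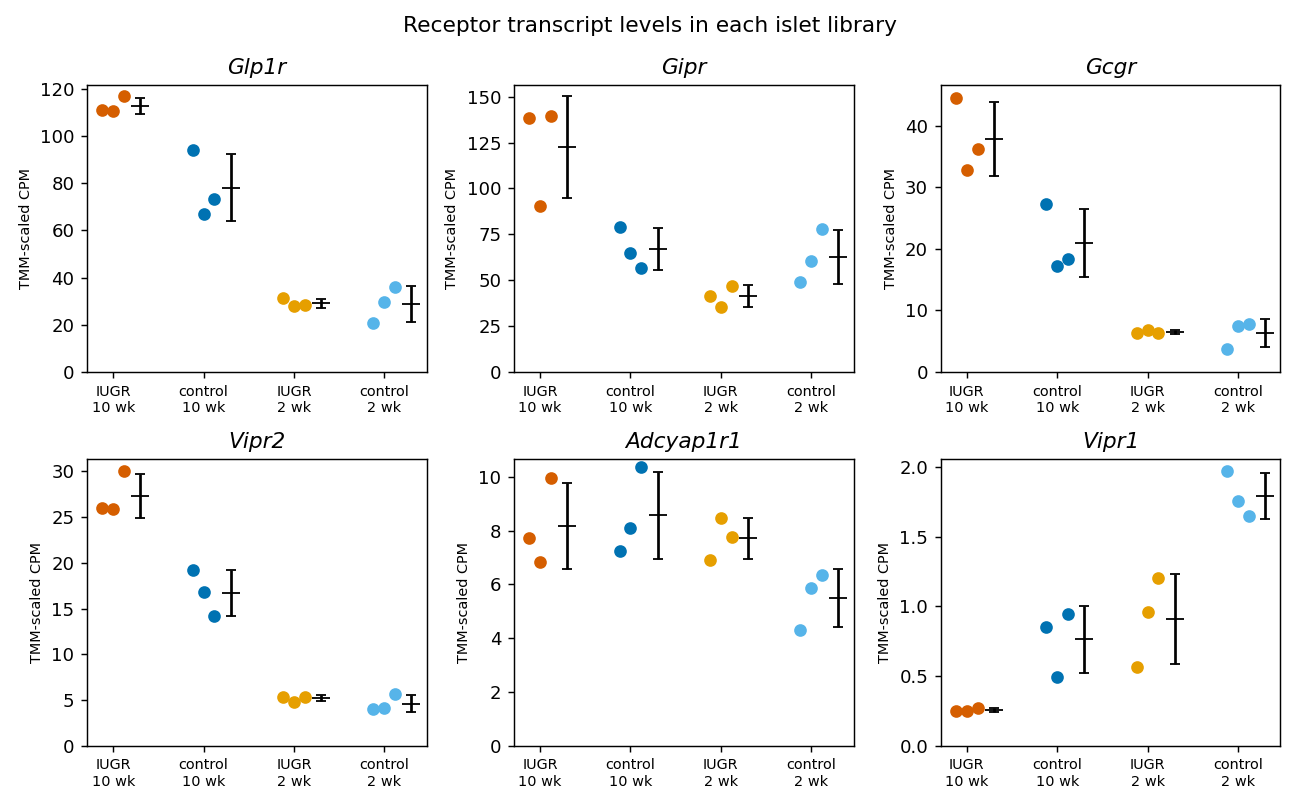
Level of each of the 6 receptors in TMM-scaled CPM (vertical axes, 1 panel per gene) in the 3 libraries of each group, IUGR and control at 10 weeks and then IUGR and control at 2 weeks; points are libraries and bars the group mean ± SD. Glp1r, Gcgr and Vipr2 stand higher at 10 than at 2 weeks in both groups, Gipr is apart from control in opposite directions at the 2 ages, and Vipr1 is lowest in IUGR islets at 10 weeks, at 0.249 to 0.272 CPM.

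In all, 5 of the 6 receptors passed the test between ages in IUGR islets, 4 higher and 1 lower, where 56.5% of the 20733 tested transcripts passed (27.3% higher and 29.2% lower). Likewise 5 of 6 passed in control islets, 4 higher and 1 lower, where 32.3% of all transcripts passed (17.2% higher and 15.1% lower). The age calls of Glp1r, Gcgr, Vipr2 and Vipr1 in both groups, and that of Gipr in IUGR islets, were kept whichever of the 12 libraries was left out. The age comparisons in IUGR and control islets share no library. Relative to 17 pan-endocrine genes, which mark islet cells of all kinds and which themselves rose with age (16 of 17 in IUGR islets, 14 of 17 in control islets), the rises were smaller. On that scale the log2 fold change with age in IUGR islets was 0.52 for Glp1r, 1.10 for Gcgr and 0.97 for Vipr2, and the median of all transcripts moved to -1.44. In control islets it was 0.36 for Glp1r, 0.65 for Gcgr and 0.78 for Vipr2, and the median of all transcripts moved to -1.11. The beta cell markers rose with age too, 13 of 13 in IUGR and 12 of 13 in control islets. Relative to the mean log2 CPM of these markers, Glp1r stood at -2.39 at 10 weeks and -2.45 at 2 weeks in IUGR islets, and at -2.26 at 10 weeks and -2.27 at 2 weeks in control islets, and these means differed between ages by less than the SD among libraries at 2 weeks. Gcgr on this scale stood at -3.97 at 10 weeks and -4.61 at 2 weeks in IUGR islets, and at -4.17 at 10 weeks and -4.50 at 2 weeks in control islets. Vipr2 stood at -4.44 at 10 weeks and -4.94 at 2 weeks in IUGR islets, and at -4.47 at 10 weeks and -4.90 at 2 weeks in control islets. These beta-relative levels are group means of 3 libraries and were not tested.

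At 10 weeks the levels of Glp1r, Gipr, Gcgr and Vipr2 were higher in IUGR than in control islets and that of Vipr1 was lower, as the libraries stood; scaled to the pan-endocrine genes, Glp1r and Vipr2 turned to values below 0 and none of these 4 passed the test. Of the 6 receptors 5 passed at this age, where 27.8% of all tested transcripts did (12.4% higher and 15.5% lower). The level of Glp1r averaged 113 ± 3.44 CPM in IUGR islets and 78.0 ± 14.1 CPM in control islets (SD, n = 3 each). It was 1.45-fold higher in IUGR islets, and the groups did not overlap (log2 fold change 0.53 ± 0.18 SE, edgeR adjusted p = 0.0444). This call was near the threshold. It was lost, with adjusted p = 0.0591 to 0.132, without any 1 of IUGR replicates 1, 2 or 3 at 10 weeks, control replicates 2 or 3 at 10 weeks, IUGR replicates 1, 2 or 3 at 2 weeks or control replicate 2 at 2 weeks.

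Gcgr averaged 37.9 ± 6.04 CPM in IUGR islets and 21.0 ± 5.52 CPM in control islets at 10 weeks, and the groups did not overlap. The level was 1.81-fold higher in IUGR islets (0.85 ± 0.25, edgeR adjusted p = 0.0283). Without IUGR replicate 1 (0.72), IUGR replicate 3 (0.89), control replicate 2 (0.74) or control replicate 3 (0.77) at 10 weeks the Gcgr call was lost, with adjusted p = 0.0581 to 0.103. Vipr2 averaged 27.3 ± 2.40 CPM in IUGR islets and 16.7 ± 2.53 CPM in control islets, again without overlap. The level of Vipr2 was 1.63-fold higher in IUGR islets (0.70 ± 0.15, edgeR adjusted p = 0.00718), a call that no left-out library ended.

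At 2 weeks the same receptors showed no such difference past the test. The level of Glp1r was 29.2 ± 1.86 CPM in IUGR islets and 28.8 ± 7.58 CPM in control islets (log2 fold change 0.02 ± 0.18, 95% interval -0.37 to 0.40, edgeR adjusted p = 0.966). Gcgr stood at 6.52 ± 0.324 CPM in IUGR islets and 6.30 ± 2.27 CPM in control islets (0.04 ± 0.26, edgeR adjusted p = 0.938), and Vipr2 at 5.17 ± 0.329 CPM in IUGR islets and 4.59 ± 0.920 CPM in control islets (0.17 ± 0.15, adjusted p = 0.482). For all 3 genes the groups overlapped. None of the 6 receptors passed at this age by edgeR's quasi-likelihood test, where 3.88% of all transcripts did (1.66% higher and 2.21% lower). At an unadjusted p under 0.05 there were 3, a count for which no share of all transcripts is given here. DESeq2, which called 3166 transcripts at this age, called 1 of the receptors, Vipr1.

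Whether the IUGR effect itself differed between ages was tested for each receptor. The difference in log2 fold change was 0.52 ± 0.25 for Glp1r (edgeR adjusted p = 0.184), 0.81 ± 0.36 for Gcgr (0.15) and 0.54 ± 0.21 for Vipr2 (0.112), so a differing effect was not shown. Without control replicate 1 at 2 weeks the differences of Glp1r (0.70) and Gcgr (1.08) passed. Without control replicate 1 at 10 weeks those of Glp1r (0.76), Gcgr (1.14) and Vipr2 (0.74) passed. Each of these libraries had over 40% acinar transcripts. Control replicate 3 at 10 weeks had the largest share, 46.5%, and without it none of these differences passed. Without both 10-week controls over 40%, control replicate 2 was the only control library at 10 weeks, so no call is drawn from that fit. The part of acinar content here was not tested. Without all 3 control libraries over 40%, a setting added after the data were seen, the differences were 0.90 for Glp1r and 1.33 for Gcgr. That fit too left control replicate 2 as the only control library at 10 weeks.

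Gipr, the receptor of the incretin released by intestinal K cells, was the receptor whose IUGR effect differed between ages past the threshold. At 10 weeks it had 138, 90.6 and 139.6 CPM in IUGR islets, against 79.1, 64.9 and 56.8 CPM in control islets. At 2 weeks it had 41.4, 35.2 and 47.1 CPM in IUGR islets, against 49.2, 60.7 and 78.1 CPM in control islets. The IUGR libraries all lay above the controls at 10 weeks and all below them at 2 weeks. Gipr was 1.83-fold higher in IUGR islets at 10 weeks (0.87 ± 0.21, edgeR adjusted p = 0.013), while the value at 2 weeks was -0.61 ± 0.21 (adjusted p = 0.102) and passed only scaled to the pan-endocrine genes (-0.97, adjusted p = 0.0402). The difference between the effects was 1.48 ± 0.30 (95% interval 0.82 to 2.13, edgeR adjusted p = 0.00974). It was the 1 call among the 6 receptors, where 14.3% of all transcripts passed (3.97% higher and 10.4% lower). It ran from 1.29 to 1.71 over the 12 fits that each left out 1 library, with adjusted p up to 0.0312. It was 1.12 scaled to the pan-endocrine genes (adjusted p = 0.011) and 1.27 with acinar content as covariate (adjusted p = 0.0492). The acinar shares of IUGR and control libraries did not overlap at either age, so the covariate fit cannot separate acinar content from IUGR.

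Across ages Gipr rose 2.98-fold in IUGR islets (1.57 ± 0.21, edgeR adjusted p = 0.000119), a rise of 0.14 (adjusted p = 0.475) on the pan-endocrine scale. In control islets its change with age was 0.09 ± 0.21 (95% interval -0.37 to 0.56, edgeR adjusted p = 0.75), and the ages overlapped. Scaled to the pan-endocrine genes, the control value turned to a fall, -0.99 (adjusted p = 0.000316), where the median of all transcripts was -1.11. The call at 10 weeks was lost without control replicate 3 of that age (0.78, adjusted p = 0.059).

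**Figure D2:**
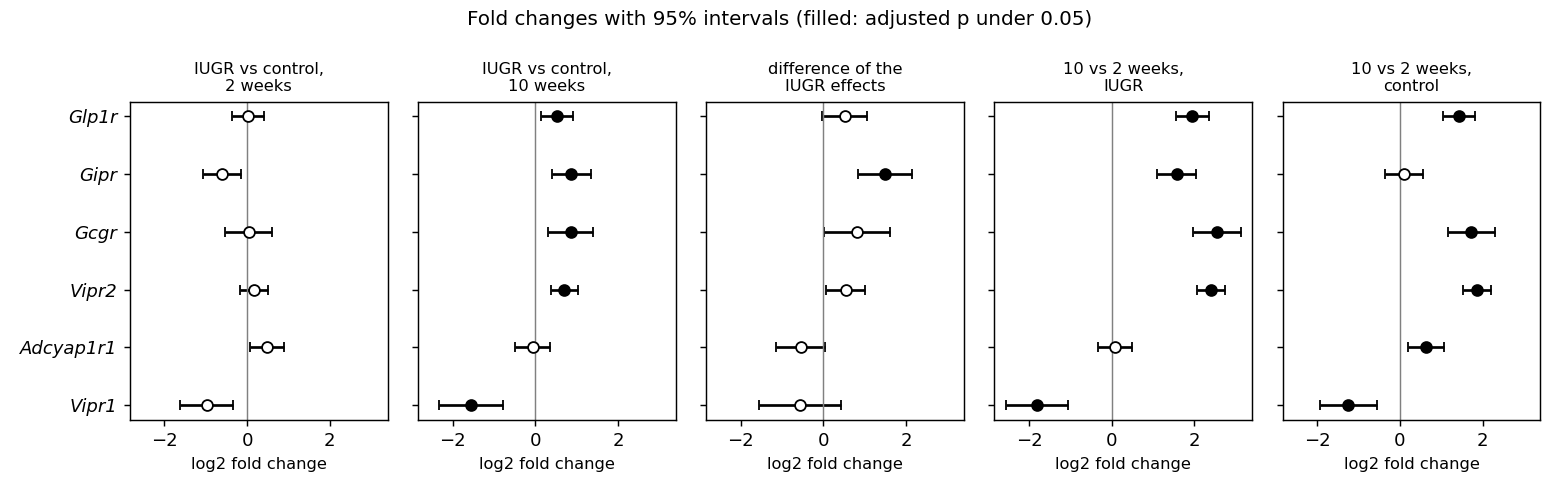
Log2 fold change of each receptor (horizontal axes, points with 95% intervals, filled where the edgeR adjusted p was under 0.05) for the IUGR comparison at 2 and 10 weeks, how far the 2 effects differ, and the age comparison within IUGR and within control islets. Gipr has the largest positive difference between ages of the 6, 1.48, and the age changes of Glp1r, Gcgr and Vipr2 lie between 1.43 and 2.54.

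Adcyap1r1, the PACAP-selective PAC1 receptor of neurons and endocrine cells, behaved otherwise. It had 7.74, 6.85 and 9.96 CPM in IUGR islets at 10 weeks, against 7.22, 8.11 and 10.4 CPM in control islets, and these groups overlapped. At 2 weeks it had 6.91, 8.46 and 7.76 CPM in IUGR islets, against 4.29, 5.86 and 6.33 CPM in control islets. At 2 weeks the groups did not overlap, yet the difference missed the threshold (0.48 ± 0.19, edgeR adjusted p = 0.133). At 10 weeks it was -0.06 ± 0.19 (95% interval -0.48 to 0.36, adjusted p = 0.83), and the difference between the effects was -0.55 ± 0.27 (adjusted p = 0.192). Scaled to the pan-endocrine genes, Adcyap1r1 was lower in IUGR islets at 10 weeks (-0.84, edgeR adjusted p = 0.0146), where the median of all transcripts was -0.75.

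With age Adcyap1r1 rose 1.55-fold in control islets (0.63 ± 0.19, edgeR adjusted p = 0.0282), with a value of -0.41 on the pan-endocrine scale, where the median of all transcripts was -1.11. The call was lost without control replicate 1 (0.49) or 2 (0.68) at 2 weeks or control replicate 3 (0.49) at 10 weeks, and also in a fit of the 6 control libraries alone (0.65, adjusted p = 0.065). Without the 2 control libraries at 10 weeks over 40% acinar transcripts the value was 0.55, and without all 3 such controls 0.43. Each of these fits left control replicate 2 as the only control library at 10 weeks. In IUGR islets the change with age was 0.09 ± 0.19 (edgeR adjusted p = 0.721), and the ages overlapped. On the pan-endocrine scale it was a fall that passed (-1.36, adjusted p = 0.000208), near the median of all transcripts on that scale, -1.44. Of its 4 listed transcripts the counts differed by at most 5 in any library, so the choice of transcript made no material difference.

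Vipr1, the VPAC1 receptor that also binds both VIP and PACAP, was read at low depth. It had 9, 10 and 11 counts in IUGR islets at 10 weeks, against 27, 21 and 26 counts in control islets. At 2 weeks it had 40, 62 and 72 counts in IUGR islets, against 69, 90 and 84 counts in control islets. As CPM these were 0.250, 0.249 and 0.272 in IUGR islets and 0.855, 0.494 and 0.949 in control islets at 10 weeks, and 0.567, 0.962 and 1.20 in IUGR islets and 1.97, 1.76 and 1.65 in control islets at 2 weeks. The IUGR libraries lay below the controls at both ages. Vipr1 fell by 1.55 ± 0.35 on the log2 scale in IUGR islets at 10 weeks (edgeR adjusted p = 0.01), kept whichever 1 library was left out. The value at 2 weeks was -0.98 ± 0.29 (adjusted p = 0.0747), which passed scaled to the pan-endocrine genes (-1.39, adjusted p = 0.0499).

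With age Vipr1 fell by 1.81 ± 0.34 in IUGR islets (edgeR adjusted p = 0.000938) and by 1.24 ± 0.31 in control islets (adjusted p = 0.0114). The difference between the IUGR effects was -0.57 ± 0.45 (edgeR adjusted p = 0.43). Vipr1 and the acinar share were both lower in IUGR than in control islets at each age. In control islets the acinar share averaged 34.3% at 10 weeks and 28.4% at 2 weeks, with overlapping libraries. As summed TMM-scaled CPM the acinar markers averaged 683441 at 10 weeks and 306570 at 2 weeks there, also with overlap. Vipr1 averaged 0.766 CPM at 10 weeks and 1.79 CPM at 2 weeks in control islets. Without the 2 control libraries at 10 weeks over 40% acinar transcripts, replicates 1 and 3, the IUGR value at 10 weeks was -0.91. Control replicate 2 was then the only control library at that age. With acinar content as covariate the IUGR value at 10 weeks was -0.17. The acinar shares of IUGR and control libraries did not overlap at 10 weeks, so this fit cannot separate acinar content from IUGR. The 10 ductal markers, as a mean of log2 CPM, averaged 2.52 in IUGR and 3.76 in control islets at 10 weeks. At 2 weeks they averaged 3.48 in IUGR and 4.54 in control islets. Of these markers 2 were lower and 0 higher in IUGR islets at 10 weeks, where 15.5% of all transcripts were lower. The part of acinar or ductal cells in the Vipr1 result was not tested.

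**Figure D3:**
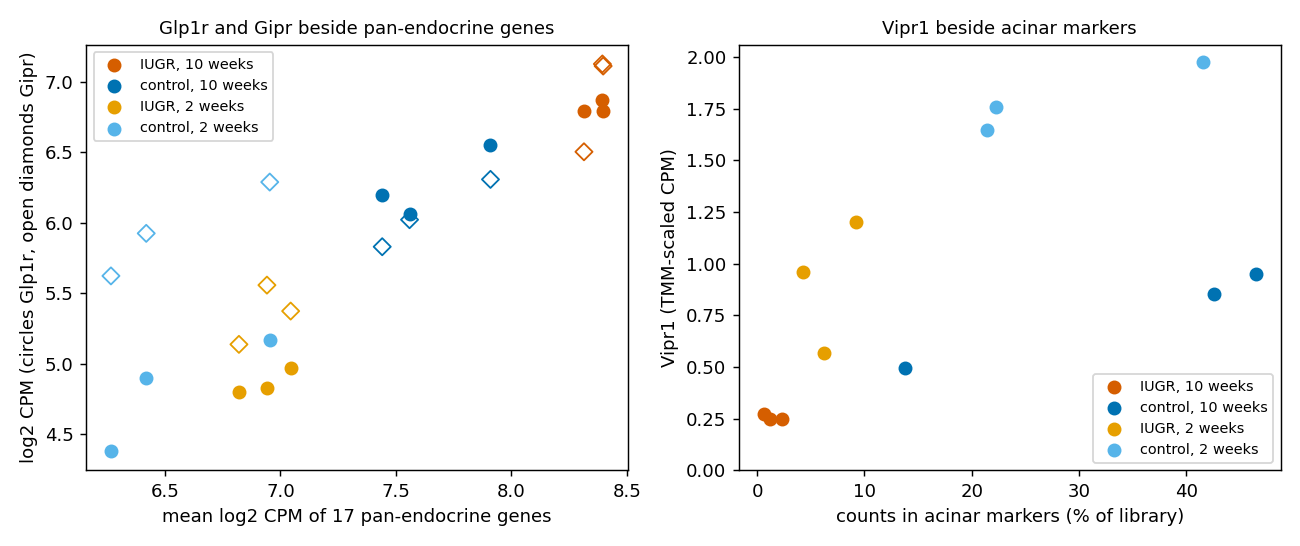
Left, log2 CPM of Glp1r (circles) and Gipr (open diamonds) against the mean log2 CPM of 17 pan-endocrine genes; right, Vipr1 in TMM-scaled CPM against the percent of counts in acinar markers, with 1 point per library coloured by group. IUGR libraries at 10 weeks lie at the upper right on the left and, at 0.616 to 2.29% acinar counts and 0.249 to 0.272 CPM of Vipr1, at the lower left on the right.

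The fit with acinar content as covariate was made for all 6 receptors. IUGR and control libraries did not overlap in acinar share at 10 weeks. This fit therefore cannot separate acinar content from IUGR at that age, and no conclusion on acinar content is drawn from it. With acinar content as covariate, none of the 6 passed between IUGR and control islets at 10 weeks by edgeR, and none had an unadjusted p under 0.05. The log2 fold changes were then 0.48 for Glp1r, 0.50 for Gipr, 0.76 for Gcgr, 0.42 for Vipr2, -0.51 for Adcyap1r1 and -0.17 for Vipr1. In IUGR islets the acinar shares did not overlap between ages either, at 0.616 to 2.29% at 10 weeks and 4.32 to 9.23% at 2 weeks. The age calls in both groups passed under this covariate, but in IUGR islets the fit cannot separate acinar content from age. Without the 2 control libraries at 10 weeks over 40%, Glp1r was 0.78 and Gipr 0.94. Control replicate 2 was then the only control library at that age, so no call is drawn from that fit. Pan-endocrine genes themselves were higher in IUGR islets at 10 weeks, 12 of 17 past the test with a median log2 fold change of 0.80. Scaled to these genes, the 10-week values were -0.19 for Glp1r, 0.15 for Gipr, 0.14 for Gcgr, -0.02 for Vipr2 and -2.27 for Vipr1, and the median of all transcripts moved by -0.75.

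**Figure D4:**
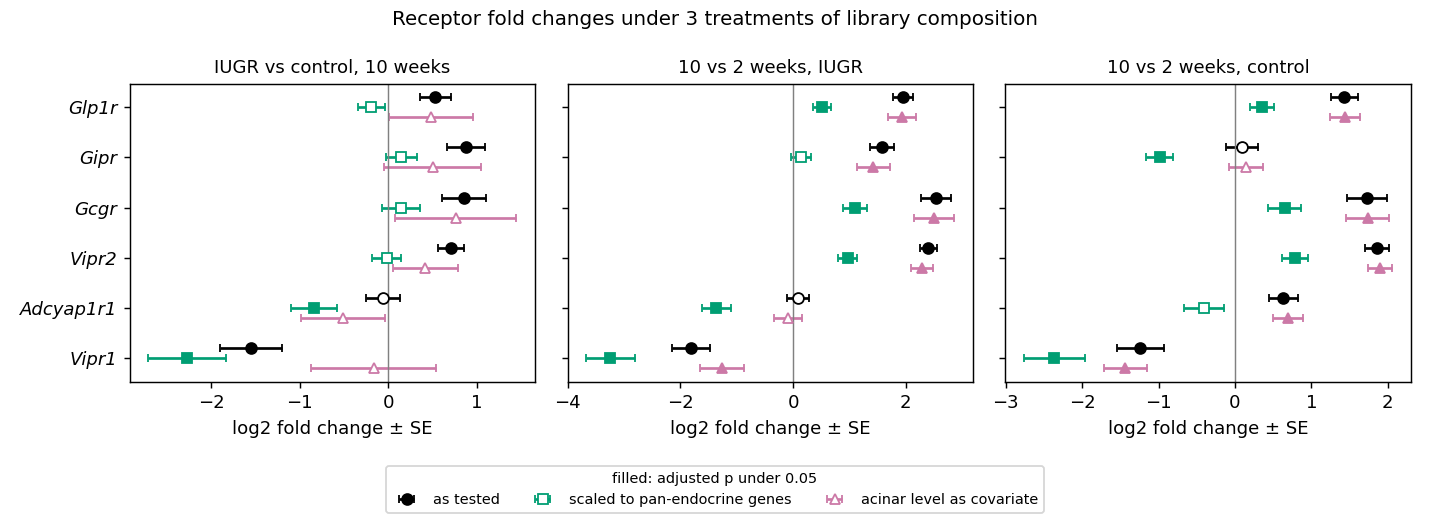
Log2 fold change ± SE of each receptor (horizontal axes) for IUGR against control at 10 weeks and for 10 against 2 weeks in IUGR and in control islets, as tested, scaled to pan-endocrine genes, and with acinar content as covariate; filled points have an adjusted p under 0.05. At 10 weeks Glp1r is 0.53 as tested and -0.19 scaled to pan-endocrine genes, and with age Gcgr and Vipr2 stay above 0 under each.

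Among the ligands, Vip differed between IUGR and control islets and Gcg did not pass at either age. Of 9 precursor and processing genes found, 6 were tested, and at 10 weeks 0 rose and 2 fell in IUGR islets, where 15.5% of all transcripts fell (median -0.61, against -0.01 for all transcripts). Vip, the precursor of VIP, had 2, 0 and 16 counts in IUGR islets at 10 weeks, against 45, 472 and 151 counts in control islets. At 2 weeks it had 538, 401 and 475 counts in IUGR islets, against 46, 135 and 144 counts in control islets. The groups did not overlap at either age, and the direction was opposite. The fitted value was -5.28 ± 0.91 at 10 weeks (edgeR adjusted p = 0.0032) and 1.67 ± 0.67 at 2 weeks (adjusted p = 0.137), and the difference was -6.95 ± 1.13 (adjusted p = 0.00471). The 12 neural and Schwann cell markers summed to 43.1 to 57.9 CPM in IUGR islets and 50.9 to 94.0 CPM in control islets at 10 weeks, and to 106 to 120 CPM in IUGR islets and 38.9 to 67.4 CPM in control islets at 2 weeks. As a mean of log2 CPM, these markers stood at 0.35 to 0.48 in IUGR islets and 1.08 to 2.40 in control islets at 10 weeks. At 2 weeks they stood at 2.68 to 2.83 in IUGR islets and 1.15 to 1.84 in control islets. Of the 12 markers 5 were lower and 0 higher at 10 weeks, where 15.5% of all transcripts were lower. At 2 weeks 4 were higher and 0 lower, where 1.66% of all transcripts were higher. The part of nerves in the Vip result was not tested.

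Gcg, which encodes glucagon and glucagon-like peptide 1, had 14289, 12885 and 5873 CPM in IUGR islets at 10 weeks, against 4918, 8645 and 5889 CPM in control islets. At 2 weeks it had 33707, 18592 and 25258 CPM in IUGR islets, against 11996, 11353 and 25214 CPM in control islets. The groups overlapped at both ages, with 0.76 ± 0.46 at 10 weeks (edgeR adjusted p = 0.232) and 0.68 ± 0.46 at 2 weeks (adjusted p = 0.345). Gcg fell by 1.23 ± 0.46 with age in IUGR islets (adjusted p = 0.04) and by 1.32 ± 0.46 in control islets (adjusted p = 0.0487), where Gcgr and Glp1r rose. Both Gcg calls stood near the threshold. In IUGR islets the call was lost without IUGR replicate 1 (-0.99) or 3 (-1.25) at 2 weeks, control replicate 1 (-1.16) or 3 (-1.16) at 10 weeks, or IUGR replicate 2 (-1.36) or 3 (-0.93) at 10 weeks. In control islets it was lost, at -0.85 to -1.52, without control replicate 2 or 3 or any IUGR replicate at 2 weeks. Leaving out control replicate 1 or 3, or IUGR replicate 1 or 2, at 10 weeks also ended it. The control value was -0.91 without both control libraries at 10 weeks over 40% acinar transcripts, and -1.07 without all 3 such controls. Each of these fits left control replicate 2 as the only control library at 10 weeks. Adcyap1, the PACAP precursor, had 3 to 6 counts per library in IUGR islets at 10 weeks and 6 to 10 in control islets, and 32 to 47 counts in IUGR islets and 16 to 54 in control islets at 2 weeks. Adcyap1 fell with age by 2.29 ± 0.41 in IUGR islets (edgeR adjusted p = 0.000672) and by 1.62 ± 0.39 in control islets (adjusted p = 0.0102). The control call was lost in an edgeR fit of the 6 control libraries alone (-1.60, adjusted p = 0.0518). Without the 2 control libraries at 10 weeks over 40% acinar transcripts, which left only control replicate 2 at that age, the control value was -1.50. Gip, which the gut makes, reached at most 6 counts in any library and was not tested.

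Downstream of the receptors, the genes were grouped as G proteins and adenylyl cyclases, cyclic AMP effectors, enzymes that end the signal, receptor regulators and CREB with its targets. At 10 weeks, where 12.4% of all transcripts were higher and 15.5% lower, the effectors had 5 of 13 higher and 1 lower in IUGR islets (median 0.28). G proteins and cyclases had 2 of 17 higher and 3 lower (median -0.20), phosphodiesterases and protein kinase A inhibitors 3 of 18 higher and 4 lower (-0.15), receptor regulators 0 of 10 higher and 2 lower (-0.09), and CREB with its targets 1 of 20 higher and 7 lower (-0.46). At 2 weeks, where 1.66% of all transcripts were higher and 2.21% lower, 3 of 13 effectors were higher, as were 1 of 18 phosphodiesterases and inhibitors and 1 of 10 receptor regulators. Gnas, the stimulatory G protein alpha subunit, did not pass in any comparison by edgeR, with 0.58 ± 0.23 between IUGR and control islets at 10 weeks (edgeR adjusted p = 0.0832) and 0.51 ± 0.23 with age in IUGR islets (adjusted p = 0.0792). The genes named next passed with every library left out in turn.

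Among effectors, Prkacb, a catalytic subunit of protein kinase A, averaged 82.8 ± 2.07 CPM in IUGR islets and 61.3 ± 3.76 CPM in control islets at 10 weeks (0.43 ± 0.08, edgeR adjusted p = 0.00521). Rapgef4, the Epac2 exchange factor through which cyclic AMP acts on insulin granules, averaged 43.9 ± 1.53 CPM in IUGR islets and 28.2 ± 2.51 CPM in control islets (0.64 ± 0.14, adjusted p = 0.00898). Scaled to the pan-endocrine genes both turned, to -0.31 for Prkacb and -0.10 for Rapgef4, and with the acinar covariate neither passed (0.09 for Prkacb and 0.12 for Rapgef4). Pde1c, a phosphodiesterase of beta cells, averaged 17.8 ± 2.04 CPM in IUGR islets and 10.1 ± 0.566 CPM in control islets (0.82 ± 0.12, edgeR adjusted p = 0.00196). Pde3a averaged 5.43 ± 1.64 CPM in IUGR islets and 13.5 ± 3.61 CPM in control islets (-1.31 ± 0.29, adjusted p = 0.00951). These phosphodiesterases thus moved in opposite directions, though Pde1c no longer passed scaled to the pan-endocrine genes (0.08, adjusted p = 0.732) or with the acinar covariate (0.99, adjusted p = 0.0717).

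Among regulators and targets, Arrb1, an arrestin that ends receptor signalling, averaged 3.90 ± 0.585 CPM in IUGR islets and 9.66 ± 1.69 CPM in control islets at 10 weeks (-1.31 ± 0.18, edgeR adjusted p = 0.00155). Cav1, the caveolin of membrane pits, averaged 43.6 ± 1.29 CPM in IUGR islets and 133 ± 39.3 CPM in control islets (-1.61 ± 0.22, adjusted p = 0.00155). Sik1, a kinase induced by cyclic AMP, averaged 14.9 ± 1.77 CPM in IUGR islets and 37.3 ± 11.6 CPM in control islets (-1.32 ± 0.26, edgeR adjusted p = 0.00545). All 3 were lower in IUGR islets at 10 weeks; with the acinar covariate Arrb1 was -1.25 and missed the threshold (adjusted p = 0.0865). The 11 endothelial markers, cells that also express Cav1, summed to 439 to 608 CPM in IUGR islets and 651 to 1103 CPM in control islets at that age, and their part in these results was not tested.

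With age, Rapgef4 rose by 1.36 ± 0.14 in IUGR islets (edgeR adjusted p = 2.29e-05) and by 0.97 ± 0.14 in control islets (adjusted p = 0.000778). Pde10a and Prkar1b, another phosphodiesterase and a regulatory subunit of protein kinase A, also rose in both groups. Their log2 fold changes were 1.85 in IUGR and 1.61 in control islets for Pde10a, and 1.12 in IUGR and 0.71 in control islets for Prkar1b. On the pan-endocrine scale Pde10a in IUGR islets no longer passed (0.41, edgeR adjusted p = 0.0687), and Rapgef4 and Prkar1b turned to values below 0 in both groups. Adcy2, an adenylyl cyclase, fell by 2.48 in IUGR islets and by 1.03 in control islets. Without the 2 control libraries at 10 weeks over 40% acinar transcripts, which left only control replicate 2 at that age, the control value was -0.83. Of the 13 effectors, 5 rose and 2 fell with age in IUGR islets (median -0.02), where 27.3% of all transcripts rose and 29.2% fell, and 4 rose and 0 fell in control islets (median 0.24), where 17.2% rose and 15.1% fell.

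Of 12 other class B receptors and RAMP proteins, which partner with some of them, 9 were tested. At 10 weeks 0 were higher and 2 lower in IUGR islets (median -0.45), where 12.4% of all transcripts were higher and 15.5% lower. Pth1r, the parathyroid hormone receptor, averaged 0.957 ± 0.0824 CPM in IUGR islets and 2.06 ± 0.470 CPM in control islets at 10 weeks (-1.10 ± 0.24, edgeR adjusted p = 0.00851). Sctr, the secretin receptor of exocrine ducts and acini, averaged 4.41 ± 2.99 CPM in IUGR islets and 22.3 ± 10.2 CPM in control islets (-2.34 ± 0.56, adjusted p = 0.0126). With acinar content as covariate the Sctr value turned to 0.92 and Pth1r, at -1.74, missed the threshold (adjusted p = 0.0672). Without the 2 control libraries at 10 weeks over 40% acinar transcripts, which left only control replicate 2 at that age, Sctr was -1.27. With age 1 of the 9 rose and 4 fell in IUGR islets, where 27.3% of all transcripts rose and 29.2% fell. In control islets 1 rose and 2 fell, where 17.2% of all transcripts rose and 15.1% fell.

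Genes whose log2 CPM followed each receptor most closely over the 12 libraries were taken from 11429 candidates (11430 for Vipr1). For Glp1r they were Jakmip3 (Pearson r = 0.996), Crebl2 (0.995) and Gpsm1 (0.994). Vipr2 was followed by Acsl6 (0.996), Rab3a (0.996) and Nceh1 (0.995), and Gcgr by Clip4 (0.994) and Ugt8 (0.992). Gipr was followed less closely, by Kif12 (0.979), Zmym3 (0.972) and Cog1 (0.968). Vipr1 was followed by Anks6 (0.966) and Casp6 (0.960), and Adcyap1r1 by Eps8 (0.940), Ednrb (0.930) and Clip2 (0.929). Among the receptors, r was 0.991 between Glp1r and Gcgr, 0.988 between Glp1r and Vipr2 and 0.975 between Gcgr and Vipr2. Glp1r and Vipr1 had an r of -0.809. These coefficients describe 12 libraries that share depth, age steps and islet content, and carry no test.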

How the data were processed

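Per the labels' protocols, ribosomal RNA was removed from islet RNA before stranded library preparation. Tools named in the submitters' processing notes are TopHat2 2.0.9 and bedtools, with builds rn5 and mm9 and no roles. How reads were counted, with which strand setting and annotation, is not given in the sources used here. Raw counts were deposited by the authors for 30309 transcripts under 25888 symbols, without normalization. Library totals ran from 30396759 to 64201627 counts. No library was identical to another.

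The deposited counts went into edgeR 4.0.16 under R 4.3.3, with filterByExpr at a minimum count of 10, TMM factors, 1 fit of 4 groups and a robust quasi-likelihood F test on 8 residual degrees of freedom. Benjamini-Hochberg adjustment covered the 20733 transcripts tested, and an adjusted p under 0.05 passed. All 6 receptors passed the filter. A standard error is the size of the log2 fold change divided by the root of F. Log2 CPM used a prior count of 0.5. The fit was also run on simulated counts with no shift in acinar content. That run does not bear on the acinar shifts seen here, and its outcome is not reported here.

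The receptors, 18 gene lists (236 of 248 entries found) and the tests were chosen with earlier results of these data known. In each comparison the text draws on the 4 members of each pathway list with the smallest p among those past the threshold. Gcg, Gip, Vip, Adcyap1 and Gnas were named always. Of 99 such calls, 68 were ended by no left-out library. The Results describe only some of these, and the others are not reported here. Genes most alike were the 3 with the highest Pearson correlation with each receptor at a mean log2 CPM of at least 1, and some of them are not reported here. Promoter sequences are from RefSeq on GRCr8, matched by symbol, which is another build than those in the notes. Same-numbered libraries correlated at -0.137 to 0.478 in their deviations from group means, so the numbers were not taken as pairing. Other settings tried were DESeq2 1.42.0, RLE scaling, no low-count filter, a replicate block, acinar content as covariate, scaling to pan-endocrine genes, fits of the 6 libraries compared, each library left out, the 10-week controls over 40% acinar counts left out and, added after the data were seen, all 3 such controls left out. Both settings without controls over 40% left control replicate 2 as the only control library at 10 weeks.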

Additional observations from a re-analysis of the deposited data

Results flagged for a closer look

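The genes below are Gipr and up to 4 members of each pathway list with the smallest p for which the IUGR effect differed between 10 and 2 weeks, by the edgeR test of that difference itself, 19 genes in all. Over all transcripts 14.3% passed this test, 3.97% with a higher and 10.4% with a lower value. Values are the log2 fold change at 10 weeks minus that at 2 weeks. Among the receptors the difference passed for Gipr (1.48), and among 6 ligand and processing genes for Vip (-6.95). Of 9 other class B receptors and accessory proteins 3 passed, all lower, namely Pth1r (-1.67), Ramp2 (-1.02) and Calcrl (-1.01). Of 17 G proteins and adenylyl cyclases 4 passed, all lower, namely Adcy2 (-1.45), Adcy3 (-1.28), Adcy4 (-1.45) and Adcy5 (-1.28). Of 18 phosphodiesterases and protein kinase A inhibitors 3 were higher and 4 lower. The 4 with the smallest p were the lower ones, Pkig (-0.82), Pde3a (-2.09), Pde1a (-1.72) and Pkia (-0.81), and the 3 higher ones, named after their values were seen, were Pde1c (0.60), Pde4c (1.22) and Pde4d (0.46). The receptor regulators gave Cav1 (-2.49) and Arrb1 (-1.49), 2 of 10. Of 20 genes of CREB and its targets 7 passed, all lower, among them Sik1 (-1.96), Fosl2 (-2.81), Nr4a3 (-3.72) and Nr4a1 (-2.15). By the same test 9 of 11 endothelial markers (median -1.33), 8 of 10 mesenchymal markers (-2.03) and 8 of 12 neural and Schwann cell markers (-1.87) were lower, and 0 were higher. Of 17 pan-endocrine genes 1 was higher and 0 lower (median 0.31). The part of cell content in the differences listed here was not tested.

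Of the 19 genes, 8 lost this call without 1 library, and IUGR replicate 2 at 2 weeks ended it for each of the 8. Further libraries did so for Adcy2 (control replicate 3 at 10 weeks), Ramp2 (control replicate 3 and IUGR replicate 2 at 10 weeks), Adcy3 (control replicates 2 and 3, IUGR replicates 1 and 2, all at 10 weeks) and Pkia (IUGR replicate 1 at 2 weeks, control replicates 2 and 3 and IUGR replicate 1 at 10 weeks). For Calcrl they were IUGR replicate 1 at 2 weeks and, at 10 weeks, control replicates 2 and 3 and all IUGR replicates. For Nr4a1 they were IUGR replicate 1 and control replicate 2 at 2 weeks and, at 10 weeks, control replicates 2 and 3 and IUGR replicates 1 and 2. For Adcy5 they were IUGR replicate 1 and control replicates 1 and 3 at 2 weeks and, at 10 weeks, control replicate 2 and IUGR replicates 1 and 2. For Adcy4 the call was kept in 2 of the 12 such fits, those without control replicate 2 at 2 weeks or control replicate 1 at 10 weeks. Over these fits the values ran from -1.58 to -1.24 for Adcy2, -1.44 to -1.03 for Adcy3, -1.68 to -0.96 for Adcy4, -1.48 to -0.99 for Adcy5, -1.17 to -0.78 for Calcrl, -1.196 to -0.83 for Ramp2, -2.50 to -1.71 for Nr4a1 and -0.94 to -0.65 for Pkia.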

How the results depend on the processing

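The difference in the Gipr effect between ages, the age calls of Glp1r, Gcgr, Vipr2 and Vipr1 and that of Gipr in IUGR islets passed under every alternative run considered here, except that Gipr did not pass with age in IUGR islets on the pan-endocrine scale (0.14). The runs without controls over 40% acinar are left aside here, as control replicate 2 was their only control library at 10 weeks. The causes of the changes below were not tested.

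Transcripts called between IUGR and control at 2 weeks numbered 804, but 3166 by DESeq2, 149 without a filter, 1223 with the replicate block, 0 with the acinar covariate (2645 at unadjusted p under 0.05), 0 from the 6 libraries alone (6239 unadjusted) and 1807 without the 10-week controls over 40% acinar. Of the receptors 1 was called at 2 weeks by DESeq2 and 2 on the pan-endocrine scale. At 10 weeks the 5774 calls became 1918 with the covariate, 12963 on the pan-endocrine scale and 3472 from 6 libraries. The 5 receptor calls became 0 with the covariate and 2 on the pan-endocrine scale. Calls of the difference, 2973, became 4721 with the covariate. Calls with age in IUGR islets, 11717, became 17979 on the pan-endocrine scale. In control islets 6693 became 16630 on that scale, 3448 from 6 libraries, 3689 without the 10-week controls over 40% and 3627 without all 3. The pan-endocrine scale splits these calls into 7 higher and 979 lower at 2 weeks, 35 and 12928 at 10 weeks, 23 and 2177 for the difference, 257 and 17722 with age in IUGR islets, and 375 and 16255 in control islets.

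Leaving out 1 library gave 0 to 2350 transcripts and 0 to 1 receptors at 2 weeks, 2971 to 7021 and 2 to 5 at 10 weeks, 1759 to 4983 and 1 to 4 for the difference, 10067 to 12596 and 5 to 5 with age in IUGR islets, and 4552 to 6833 and 4 to 5 in control islets. Of 99 calls on named pathway genes 68 were kept whichever library was left out. With the replicate block Glp1r at 10 weeks no longer passed (0.53, adjusted p = 0.0599); 4 receptors passed. The block also ended the Gcg calls with age in IUGR (adjusted p = 0.0673) and control islets (adjusted p = 0.0789).

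Receptor values that turned sign on the pan-endocrine scale were Glp1r (-0.35) and Gcgr (-0.31) and Vipr2 (-0.20) at 2 weeks, Glp1r (-0.19) and Vipr2 (-0.019) at 10 weeks, Adcyap1r1 with age (-1.36 in IUGR, -0.41 in control islets) and Gipr with age in control islets (-0.99). With the covariate they were Glp1r (-0.0078) and Gcgr (-0.0049) at 2 weeks, Adcyap1r1 with age in IUGR islets (-0.089) and the Vipr1 difference (0.17). From 6 libraries Glp1r at 2 weeks was -0.020. Without the 10-week controls over 40%, Adcyap1r1 at 10 weeks was 0.035 and the Vipr1 difference 0.040. Without all 3, Glp1r (-0.15) and Gcgr (-0.20) at 2 weeks, Adcyap1r1 at 10 weeks (0.0077) and Gipr with age in control islets (-0.082) turned. With 1 library left out the ranges that crossed 0 were -0.17 to 0.20 for Glp1r and -0.22 to 0.22 for Gcgr at 2 weeks, -0.23 to 0.10 for Adcyap1r1 at 10 weeks, -0.079 to 0.20 for Adcyap1r1 with age in IUGR islets and -0.061 to 0.28 for Gipr with age in control islets.

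Pathway genes turned sign mainly on the pan-endocrine scale. These were Rap1a (-0.0011) and Gnas (-0.0064) at 2 weeks, Gnaq (-0.48), Prkacb (-0.31), Rapgef4 (-0.10), Prkar1a (-0.27), Pde3b (-0.0041) and Gnas (-0.15) at 10 weeks, and Gcg (-0.34) and Gnas (-0.14) for the difference. With age in IUGR islets they were Sik2 (-0.81), Rapgef4 (-0.069), Prkar1b (-0.31), Prkacb (-0.90), Prkaca (-0.75), Snx27 (-1.002) and Gnas (-0.93). In control islets they were Sik2 (-0.63), Adcy9 (-0.70), Gnaq (-0.85), Rapgef4 (-0.094), Prkar1b (-0.41), Prkacb (-0.66), Prkaca (-0.61), Pde1c (-0.089), Pde7b (-0.25), Adrbk1 (-0.84) and Gnas (-0.78). Elsewhere Sctr at 10 weeks turned with the covariate (0.92), Adcyap1 at 2 weeks with the block (0.011) and the Gcg difference with the covariate (-0.14), without the 10-week controls over 40% (-0.33) and without all 3 (-0.17). With 1 library left out, Adcyap1 at 2 weeks ran from -0.27 to 0.46, the Gcg difference from -0.38 to 0.43 and the Gnas difference from -0.086 to 0.41. Depth limited Vipr1, at 9 to 11 counts per IUGR library at 10 weeks, and Gip.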
